A study of Mus musculus with 12 samples.

Results

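The genes described here are the ubiquitin-conjugating enzymes and the ubiquitin-specific proteases of the mouse hypothalamus, measured in Wfs1 mutant mice. They were taken by symbol: every gene of the deposited count table whose symbol begins with Ube2, and every gene whose symbol begins with Usp followed by a digit, without Usp9y and without numbered duplicates or pseudogenes. This gave 86 of the 24020 genes in the table, 35 conjugating enzymes and 51 proteases. The symbol is not proof of the activity. Usp6nl encodes a GTPase-activating protein and Ube2cbp a ubiquitin ligase, and both were kept because the symbols match.

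Whole hypothalamus was compared between wild-type, heterozygous and homozygous mice of the line Wfs1tm1Koks, with 4 libraries per genotype. The labels give wild-type, heterozygous or homozygous for the Wfs1 mutation, name no treatment, and give neither age nor sex in the fields used here. The growth protocol counts 5 hypothalamus animals per genotype where the design counts 4, and the homozygous library called replicate 5 below matches no sample label by number. It was placed by the prefix of its column name, and no column bears the number of the homozygous sample labelled 3. Whether these are the same sample is not given in the labels. Each library is taken as 1 mouse, which the design text gives as its unit. The Wfs1 product, wolframin, spans the membrane of the endoplasmic reticulum.

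Ubiquitin is attached to proteins in a relay. An activating enzyme (E1) charges it, a conjugating enzyme (E2, the Ube2 genes) receives it, and a ligase (E3) passes it to the substrate, where chains of ubiquitin can send the protein to the proteasome. Ubiquitin-specific proteases (the Usp genes) are the largest family of enzymes that take ubiquitin off again. In neurons both families act on receptors, synaptic proteins, histones, mitochondria and on misfolded proteins that leave the endoplasmic reticulum, a route called ER-associated degradation.

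Library totals ran from 979394 to 2330872 counts, and values are CPM, counts scaled to library size with TMM factors. Wfs1 itself gave 114, 138, 163 and 167 CPM in wild types, 84.2, 81.8, 102 and 89.9 in heterozygotes, and 20.1, 17.5, 14.8 and 15.8 in homozygotes (log2 fold change -3.07, homozygous against wild-type). The precursor rRNA gene Rn45s, a sign of library composition, spanned 958 to 1983 CPM in wild-type, 352 to 788 in heterozygous and 85.8 to 352 in homozygous libraries, with homozygous replicates 4 (95.6) and 5 (85.8) lowest. Of 11 tested hypothalamic markers 1 was called higher in homozygous mice (Sst) and 3 lower (Trh, Hdc and Pomc), with a median log2 fold change of -0.41. Pmch (696 to 1288 CPM) and Hcrt (25.5 to 65.3 CPM) were present in all libraries, and the pituitary genes Gh and Prl had no count in any. Of the other pituitary markers, Tshb was at 0.622 to 6.59 CPM, and Cga and Lhb reached at most 3.3 and 1.9 CPM. Pomc, counted above as hypothalamic, is also a pituitary marker. The transcription factor Otp, a hypothalamic marker, reached at most 2.09 CPM. The summed level of 5 thalamic markers was 514 to 741 CPM in wild-type and 681 to 1065 in homozygous libraries, with 3 of 5 called higher. These were Rora, Ntng1 and Slc17a6 (mean 366 and 532 CPM), while Prkcd (log2 fold change 0.25) and Tcf7l2 (0.30) were not called. The summed level of 5 oligodendrocyte markers was 2774 to 3584 and 1664 to 2867 CPM, with 1 of 5 called lower. Summed astrocyte markers did not overlap (1655 to 1810 CPM in wild-type, 1944 to 2531 in homozygous libraries). Aldoc (mean 686 and 1196 CPM) and Aqp4 were called higher and Gfap lower. Slc1a3 (log2 fold change -0.14) and Gja1 (-0.41) were not called, and the median of the 5 was -0.14. Summed neuron markers were at 3903 to 5010 and 4918 to 7123 CPM, with Snap25 (mean 2873 and 4372 CPM) and Stmn2 called higher. Syt1 (-0.13), Tubb3 (-0.31) and Rbfox3 (-0.11) were not called, and the median of the 5 was -0.11. The part of these differences in the results below was not tested, and in bulk tissue fewer cells of a type and less RNA per cell cannot be told apart.

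Of the 86 genes, 71 passed the filter on low counts and were tested, 26 conjugating enzymes and 45 proteases. The 9 conjugating enzymes that did not pass were Ube2c, Ube2s and Ube2t, which act in the cell cycle and DNA repair, with Ube2l6, Ube2v1, Ube2u, Ube2j2, Ube2cbp and Ube2dnl. They reached at most 7.71 CPM (Ube2j2), and 1 had no count. The 6 proteases were Usp18, Usp26, Usp17l5, Usp43, Usp44 and Usp50, at most 2.47 CPM, of which 2 had no count. Per kilobase of the longest annotated transcript, the highest wild-type levels among conjugating enzymes were those of Ube2b (78.0 CPM per kb), Ube2j1 (66.2) and Ube2d2 (54.2). Among proteases they were Usp11 (176), Usp22 (84.9) and Usp29 (64.7).

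The windows below show the 100 bases before the start site of 7 called genes. These are a pair of paralogous proteases that rose together, the endosomal and Wnt-pathway proteases Usp8 and Usp34, the conjugating enzymes Ube2h and Ube2e2, which fell, and the ER-membrane enzyme Ube2j1. The call of Ube2j1 ended in 6 of 8 single omissions. Windows of other called genes, such as Ube2k and Ube2r2, are not shown. The windows are RefSeq sequences on GRCm38.p6, written 5′ to 3′ on the gene's own strand, with the motif matches named afterwards in capitals.
Usp51, chrX:153006369-153006468, + strand: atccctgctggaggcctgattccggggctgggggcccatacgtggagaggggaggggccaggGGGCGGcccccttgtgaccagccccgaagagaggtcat
Usp27x, chrX:7375831-7375930, - strand: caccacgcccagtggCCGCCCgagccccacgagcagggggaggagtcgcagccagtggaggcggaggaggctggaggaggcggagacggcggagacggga
Usp8, chr2:126707228-126707327, + strand: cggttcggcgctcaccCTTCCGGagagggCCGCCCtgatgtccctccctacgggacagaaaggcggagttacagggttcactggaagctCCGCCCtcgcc
Usp34, chr11:23306795-23306894, + strand: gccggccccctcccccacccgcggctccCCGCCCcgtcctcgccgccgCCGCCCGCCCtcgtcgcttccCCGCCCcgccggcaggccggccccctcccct
Ube2h, chr6:30304540-30304639, - strand: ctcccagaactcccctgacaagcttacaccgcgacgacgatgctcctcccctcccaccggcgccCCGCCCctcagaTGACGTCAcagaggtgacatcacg
Ube2e2, chr14:18893772-18893871, - strand: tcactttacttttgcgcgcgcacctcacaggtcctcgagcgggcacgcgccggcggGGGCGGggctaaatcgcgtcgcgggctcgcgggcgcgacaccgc
Ube2j1, chr4:33031280-33031379, + strand: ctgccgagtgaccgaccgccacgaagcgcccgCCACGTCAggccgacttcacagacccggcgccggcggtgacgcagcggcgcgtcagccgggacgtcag
The capitals mark GC boxes (GGGCGG), which bind Sp family factors, the ETS motif CCGGAAG in Usp8, the cAMP response element TGACGTCA in Ube2h and the unfolded-protein-response element TGACGTGG in Ube2j1, each on either strand. Matches were counted in the 250 bases before the start. RefSeq windows were available for 65 of the 86 genes and for 21 of the 26 called ones. A GC box was in 11 of 14 called-higher and 4 of 7 called-lower genes, and in 32.7% of 32851 RefSeq windows of that length. The response element TGACGTCA was in Ube2h alone of these 21 and in 1.55% of all windows. TGACGTGG was in Ube2j1 alone and in 0.563% of all windows. The bases just after the start used for Ube2j1 were in no GENCODE M21 transcript of the gene, unlike those of the other genes shown. The ER stress element ERSE was in none of the 21 and in 0.113% of all windows, and CCAAT itself was in 0 of 14 and 1 of 7, against 33.8%. TATAAA was in 0 of 14 and 2 of 7 (12.4% of all), CCGGAAG in 3 of 14 and 2 of 7 (6.91%), and the NRF1 motif in none (0.782%). The GC content of the 250 bases had a median of 74.2% in the 14 higher genes, 57.6% in the 7 lower, 67.6% in 34 tested members that were not called and 52.4% over all windows. These are matches of letters and not binding sites. They were not counted in the tested members that were not called, so they do not set the called ones apart from those.

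In homozygous against wild-type hypothalamus, 7 of 26 conjugating enzymes were higher and 4 lower, and 11 of 45 proteases were higher and 4 lower. Calls are those of edgeR's quasi-likelihood test with Benjamini-Hochberg adjustment across the 10737 tested genes and a threshold of 0.05, and adjusted p below are from that test unless another tool is named. The called share was 42.3% of the conjugating enzymes and 33.3% of the proteases, against 25.4% of all genes tested (13.7% higher and 11.6% lower). The median log2 fold change was 0.12 in each family and -0.03 over all genes. Homozygous and wild-type libraries did not overlap in CPM for 6 of 26 conjugating enzymes (23.1%) and 14 of 45 proteases (31.1%), against 23.6% of all genes tested. The heterozygous mean lay between the other means in all 26 called members and in 96.3% of the called genes at large, which the choice of called genes largely fixes. It was near the wild-type mean for some, such as Ube2b (142 and 139.8 CPM), Ube2v2 (57.7 and 54.6) and Usp36 (39.8 and 41.6). Leaving out 1 library moved the count of higher conjugating enzymes to 4 (without wild-type replicate 3 or 5, or homozygous replicate 4 or 5), of higher proteases to 7 (without wild-type replicate 3 or homozygous replicate 5), and of lower proteases to 1 (without wild-type replicate 2 or 3) or 2 (without homozygous replicate 4). Without homozygous replicates 4 and 5 together, the libraries with the least Rn45s, 2 conjugating enzymes were higher and 2 lower, 6 proteases were higher and 1 lower, and 11.9% of all genes were called (7.15% higher and 4.71% lower). A fit with an offset on transcript GC content, called the GC offset, is given below beside each call that it ended and for some that it kept.

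**Figure D1:**
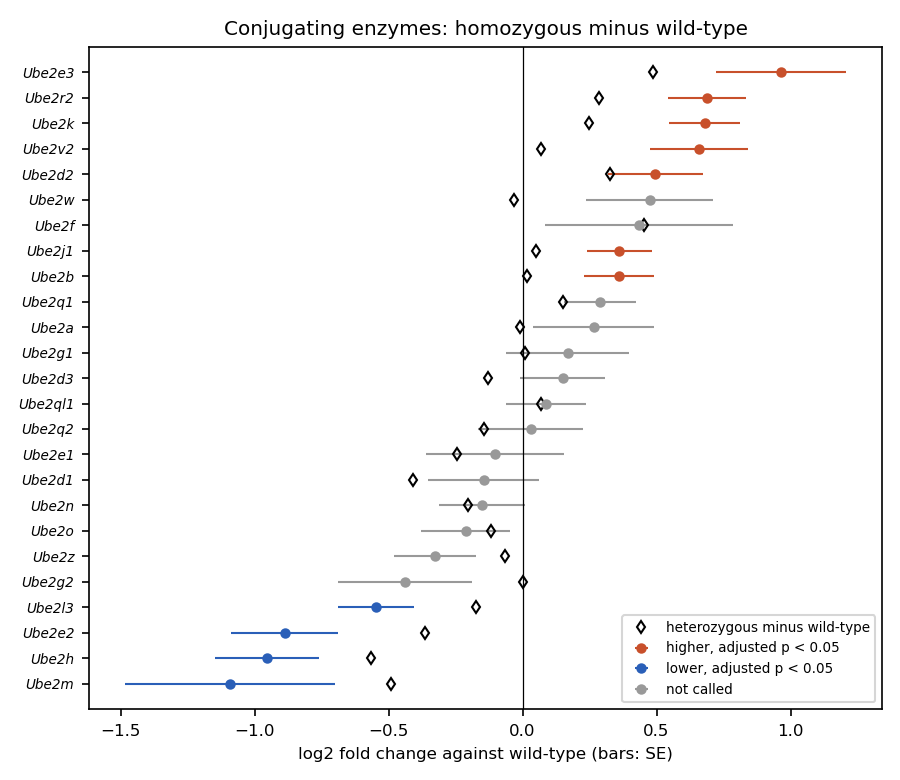
Log2 fold change of the tested conjugating enzymes reported here, homozygous minus wild-type (x axis), with bars for the standard error. Orange points were called higher by edgeR, blue points lower and grey points not, and open diamonds give heterozygous minus wild-type. The called members run from Ube2m at -1.09 to Ube2e3 at 0.96, and those not called from -0.44 (Ube2g2) to 0.47 (Ube2w).

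Among conjugating enzymes that serve ER-associated degradation, Ube2k and Ube2j1 rose, Ube2g1 and Ube2g2 were not called (log2 fold change 0.17 and -0.44), and Ube2j2 was too low to test. Ube2k builds the chains that mark proteins for the proteasome. Its level was 219, 172, 189 and 176 CPM in wild types, 235, 189, 249 and 228 in heterozygotes and 264, 272, 308 and 375 in homozygotes. Every homozygous library was above every wild-type and heterozygous library. The log2 fold change was 0.68 (SE 0.13, adjusted p = 0.000857), and it was called in each of the 8 fits that left out 1 wild-type or homozygous library. With the GC offset the value was 0.35 (adjusted p = 0.0192). Ube2j1, which sits in the ER membrane with the Syvn1 ligase, was at 257, 215, 229 and 235 CPM in wild types, 244, 225, 250.5 and 249 in heterozygotes and 235, 325, 322 and 321 in homozygotes. Homozygous replicate 1 lay among the wild-type libraries and the other 3 lay above them. The difference was small (log2 fold change 0.36, SE 0.12, adjusted p = 0.0319). The call ended without wild-type replicate 2, 3 or 5 or homozygous replicate 2, 4 or 5 (adjusted p 0.0556 to 0.0845). It was 0.27 (adjusted p = 0.186) without homozygous replicates 4 and 5 and 0.18 (adjusted p = 0.253) with the GC offset.

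The Ube2e enzymes are closely related, general-purpose conjugating enzymes that work with many RING ligases, and they moved apart. Ube2e3 was at 57.9, 49.5, 29.9 and 30.5 CPM in wild types, 50.8, 57.6, 61.5 and 63 in heterozygotes and 53.0, 58.4, 118 and 103 in homozygotes (log2 fold change 0.96, SE 0.24, adjusted p = 0.00567). Only homozygous replicates 4 and 5 stood clear of the wild-type range by a wide margin, and without both the value of Ube2e3 was 0.44 (adjusted p = 0.186). Ube2e2 was at 50.6, 58.0, 52.5 and 47.9 CPM in wild types, 34.7, 40.5, 34.4 and 51.9 in heterozygotes and 32.9, 31.4, 17.3 and 29.4 in homozygotes. Homozygous and wild-type libraries did not overlap for Ube2e2 (log2 fold change -0.89, SE 0.20, adjusted p = 0.00248; without homozygous replicates 4 and 5, -0.69, adjusted p = 0.0251). Ube2e1 was not called (-0.10, adjusted p = 0.801). As a share of the reads of the 3 genes, Ube2e2 went from 46.7% ± 4.85 (SD, n = 4) in wild-type to 35.0% ± 4.05 in heterozygous and 23.4% ± 10.2 in homozygous mice, and Ube2e3 from 36.5% ± 7.89 to 50.9% ± 3.43 and 62.7% ± 9.70, while the summed level was 113 ± 14, 114 ± 9.83 and 129 ± 31.6 CPM. These shares were chosen after the values were seen and were not tested. The coding sequences of the 3 genes are 77.0% to 78.7% identical with identical runs of at most 27 bases, so reads of 75 and 35 bp could mostly be placed, but the treatment of multiply mapped reads is not given in the sources used here.

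Ube2d2 and Ube2l3, in the same role, also moved in opposite directions. Ube2d2, a workhorse partner of RING ligases, was at 119.5, 184, 120.2 and 114 CPM in wild types, 162, 121, 195 and 196 in heterozygotes and 157, 156, 212 and 235 in homozygotes (log2 fold change 0.50, SE 0.18, adjusted p = 0.0437). Wild-type replicate 2 lay inside the homozygous range. The call ended without wild-type replicate 1, 3 or 5 or homozygous replicate 4 or 5 (adjusted p 0.0998 to 0.132), without both of the latter (0.24, adjusted p = 0.404) and with the GC offset (0.33, adjusted p = 0.130). Its paralogs Ube2d1 (-0.15) and Ube2d3 (0.15) were not called. Ube2d2 and Ube2d3 share 86.4% of coding bases with an identical run of 42 bases, longer than the shorter read, so the split of reads between them is uncertain. Ube2l3, which charges HECT and parkin-type ligases, was at 169, 152, 133 and 129 CPM in wild types, 115, 128, 138 and 136 in heterozygotes and 103, 117, 79.1 and 96.0 in homozygotes. The homozygous libraries were all below the wild-type ones (log2 fold change -0.55, SE 0.14, adjusted p = 0.00647; without homozygous replicates 4 and 5, -0.39, adjusted p = 0.0782). Exons of Ydjc overlap those of Ube2l3 by 1670 bases on the other strand, and the strand of the counts is not given in the sources used here.

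Enzymes with dedicated ligases or chain types included the most clearly lowered member, Ube2h. It is the E2 of the CTLH ligase complex and is known from red cell maturation. Its level was 78.5, 81.8, 80.9 and 73.3 CPM in wild types, 51.4, 68.8, 40.3 and 48.6 in heterozygotes and 44.9, 51.6, 33.8 and 26.0 in homozygotes. The wild-type libraries lay close together and above every heterozygous and homozygous library. The log2 fold change was -0.95 (SE 0.19, adjusted p = 0.00106), and -0.69 (adjusted p = 0.0147) without homozygous replicates 4 and 5. The tested blood marker Beta-s was at 16.7 ± 8.28 CPM (SD, n = 4) in wild types, 12.3 ± 3.56 in heterozygotes and 7.11 ± 3.90 in homozygotes and was called lower (adjusted p = 0.0432), and its part in the values of Ube2h was not tested. Ube2r2, a Cdc34-type enzyme that extends chains on cullin-RING ligases, was at 164, 243, 150.1 and 209 CPM in wild types, 217, 212, 262 and 241 in heterozygotes and 308, 361, 306 and 249.5 in homozygotes. Homozygous and wild-type libraries did not overlap, and came closest at wild-type replicate 2 and homozygous replicate 5 (log2 fold change 0.69, SE 0.15, adjusted p = 0.00160; without homozygous replicates 4 and 5, 0.82, adjusted p = 0.000201). Ube2b, a Rad6 enzyme that ubiquitylates histones and acts in replication bypass, rose by 0.36 on the log2 scale (adjusted p = 0.0462), from 139.8 ± 12.3 to 181 ± 29.3 CPM (SD, n = 4), and the call ended without wild-type replicate 2, 3 or 5 or homozygous replicate 4 or 5 (adjusted p 0.0663 to 0.169). It was 0.16 (adjusted p = 0.5001) without homozygous replicates 4 and 5 and 0.08 (adjusted p = 0.664) with the GC offset. Its paralog Ube2a was not called (0.27, adjusted p = 0.414).

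Ube2v2 is a catalytically inactive variant that pairs with Ube2n to build signalling chains. It was at 59.4, 38.1, 61.2 and 59.7 CPM in wild types, 58.5, 58.4, 48.3 and 65.6 in heterozygotes and 71.1, 72.7, 92.3 and 118 in homozygotes, with no overlap between homozygous and wild-type (log2 fold change 0.66, SE 0.18, adjusted p = 0.0108; without homozygous replicates 4 and 5, 0.39, adjusted p = 0.169). With the GC offset the value of Ube2v2 was 0.20 (adjusted p = 0.422). Ube2n was not called (-0.15, adjusted p = 0.521). Of the enzymes that carry other modifiers, Ube2m, the NEDD8 enzyme that activates cullins, was at 5.87, 11.4, 13.1 and 8.08 CPM in wild types, 5.14, 6.67, 8.79 and 6.56 in heterozygotes and 6.04, 4.49, 4.94 and 1.13 in homozygotes. The groups overlapped at these low levels (log2 fold change -1.09, SE 0.39, adjusted p = 0.0430). The call ended without wild-type replicate 2, 3 or 5 or homozygous replicate 2, 4 or 5 (adjusted p 0.0544 to 0.163). It was -0.87 (adjusted p = 0.204) without homozygous replicates 4 and 5 and -0.54 (adjusted p = 0.340) with the GC offset. The other NEDD8 enzyme Ube2f (0.44) was not called, nor were any of the 5 tested large or divergent enzymes, such as Ube2o (-0.21), which acts as E2 and E3 at once.

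**Figure D2:**
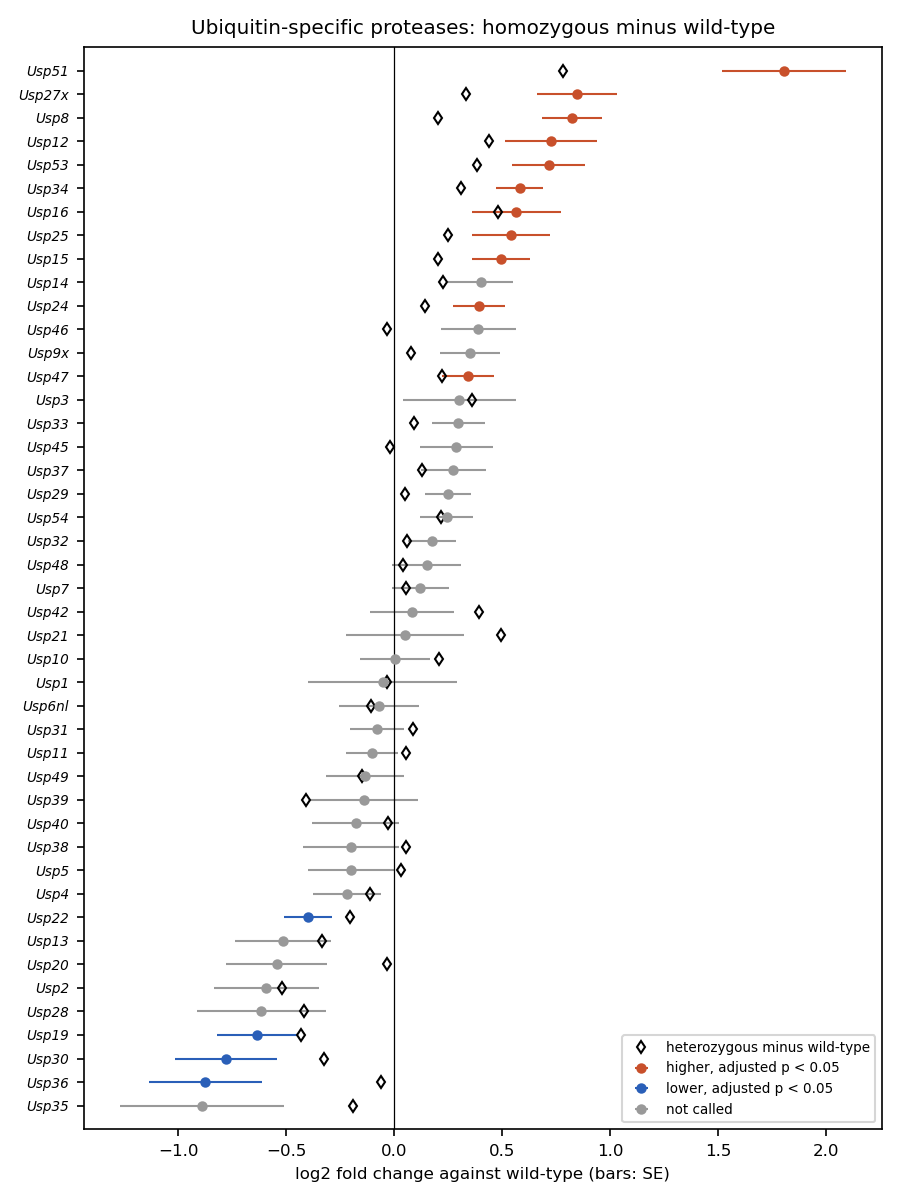
Log2 fold change of each tested ubiquitin-specific protease, homozygous minus wild-type (x axis), with bars for the standard error. Orange points were called higher by edgeR, blue points lower and grey points not, and open diamonds give heterozygous minus wild-type. Usp51 at 1.80 stands apart from the other 10 called higher, which run from 0.34 (Usp47) to 0.85 (Usp27x), and the 4 called lower run from -0.87 (Usp36) to -0.40 (Usp22).

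Among proteases of histones, Usp22, Usp27x and Usp51 formed a set of paralogs with opposite changes. Each can serve as the catalytic subunit of a deubiquitinase module with Atxn7l3 and Eny2, and Usp22 is the one that sits in the SAGA coactivator. Usp51 was at 13.9, 17.1, 8.02 and 9.32 CPM in wild types, 19.9, 14.6, 22.7 and 25.6 in heterozygotes and 26.1, 38.2, 42.0 and 64.3 in homozygotes. All homozygous libraries were above all others, and the heterozygous libraries overlapped the wild-type ones at replicate 2 of each. The fold change was 3.49 (log2 fold change 1.80, SE 0.29, adjusted p = 0.000126), and without homozygous replicates 4 and 5 the log2 value was 1.47 (adjusted p = 0.000671). Usp27x was at 28.6, 28.5, 27.0 and 31.1 CPM in wild types, 41.8, 38.4, 33.7 and 30.9 in heterozygotes and 62.4, 39.5, 51.9 and 56.5 in homozygotes. Again homozygous and wild-type libraries did not overlap (log2 fold change 0.85, SE 0.18, adjusted p = 0.00203). Usp22, which is far more abundant, was at 346, 444, 349.8 and 366 CPM in wild types, 326, 333, 314 and 330.1 in heterozygotes and 282, 274, 299 and 287 in homozygotes. The 3 genotypes did not overlap for Usp22 (log2 fold change -0.40, SE 0.11, adjusted p = 0.0104), and leaving out wild-type replicate 2 ended the call (-0.30, adjusted p = 0.0572).

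Summed over the 3 paralogs, the level was 417 ± 49.3 CPM (SD, n = 4) in wild types, 383 ± 8.23 in heterozygotes and 381 ± 24.7 in homozygotes. Usp22 made up 89.1% to 90.9% of their reads in wild-type, 84.1% to 86.3% in heterozygous and 70.4% to 77.9% in homozygous libraries. The share of Usp51 was 2.87% ± 0.785 (SD), 5.42% ± 1.25 and 11.1% ± 3.58, and that of Usp27x 6.96% ± 0.803, 9.44% ± 1.19 and 13.8% ± 2.32. The shares of Usp22 did not overlap between any 2 genotypes. They were chosen after the values were seen and were not tested. Transcript GC content was similar in the 3 genes (50.7% in Usp22, 50.8% in Usp27x and 48.1% in Usp51), and all 3 kept their calls when an offset on GC content was added to the fit. Coding identity was 78.1% between Usp22 and Usp27x, 68.9% between Usp22 and Usp51 and 72.3% between Usp27x and Usp51. Identical runs reached at most 32 bases, close to the shorter read of 35 bp. How reads with several matches were counted is unknown, and misplacement of reads among the 3 genes was not tested. Usp51 and Usp27x are X-linked (chrX:153006469-153009416 and chrX:7371276-7375830 in GENCODE M21) and Usp22 lies on chromosome 11 (chr11:61151785-61175055). The shared subunits Atxn7l3 (-0.33, adjusted p = 0.202) and Eny2 (0.06, adjusted p = 0.794) were not called.

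**Figure D3:**
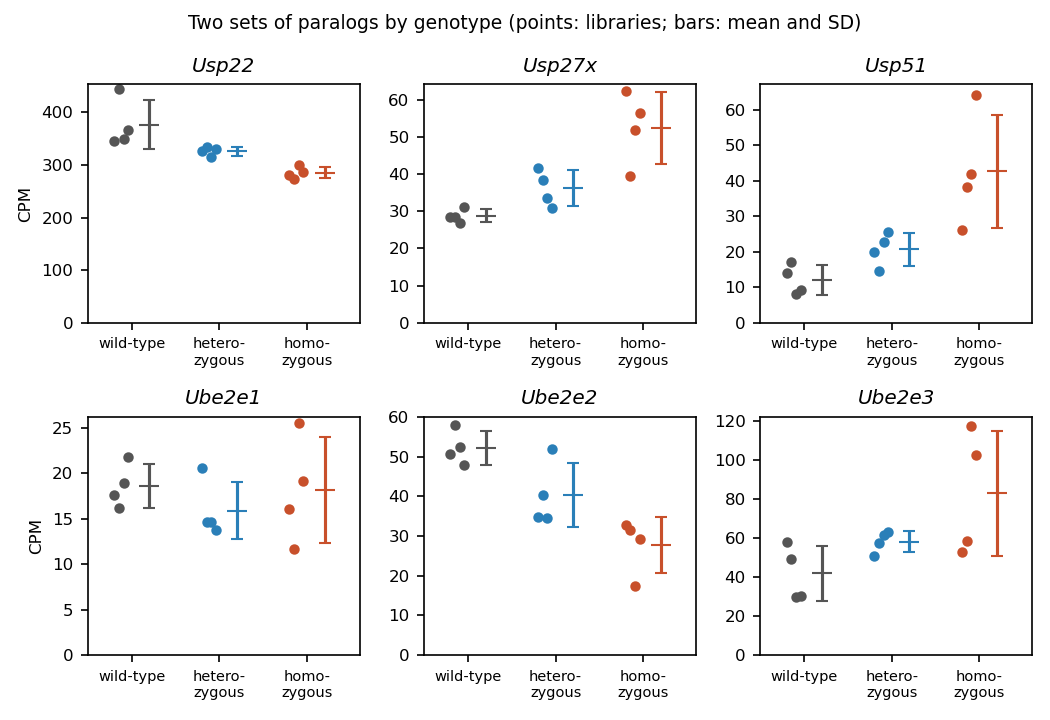
CPM of Usp22, Usp27x and Usp51 and of the Ube2e genes in each library by genotype, with points for libraries and bars for the mean and SD. Usp22 falls from 376 to 285 CPM on average from wild-type to homozygous mice while Usp27x rises from 28.8 to 52.6 and Usp51 from 12.1 to 42.7.

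Of the other 6 tested chromatin proteases, Usp16 and Usp36 were called, beside 25.4% of all genes. Usp36, a nucleolar enzyme, was at 29.3, 52.3, 47.4 and 37.3 CPM in wild types, 33.4, 36.7, 48.3 and 40.7 in heterozygotes and 30.2, 29.6, 14 and 10.2 in homozygotes. Homozygous replicates 1 and 2 lay at the level of wild-type replicate 1, and replicates 4 and 5, which were also lowest in Rn45s, lay far below (log2 fold change -0.87, SE 0.26, adjusted p = 0.0164). Without those 2 libraries the value was -0.46 (adjusted p = 0.199), and the call also ended without wild-type replicate 2 or 3 or homozygous replicate 4 (adjusted p 0.0580 to 0.0606) and with the GC offset (-0.57, adjusted p = 0.0681). Usp16, which takes ubiquitin from histones in mitosis, rose by 0.57 on the log2 scale (adjusted p = 0.0466), and 5 of 8 single omissions ended its call (wild-type replicates 1, 2 and 3, homozygous replicates 1 and 5; adjusted p 0.0515 to 0.129). It was 0.59 (adjusted p = 0.0788) without homozygous replicates 4 and 5 and 0.38 (adjusted p = 0.185) with the GC offset.

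Of 9 tested proteases of endosomes, receptor recycling, mitochondria and the ER, 2 were called higher and 2 lower, with a median log2 fold change of 0.004. Of all genes 13.7% were called higher and 11.6% lower. Usp8 deubiquitylates receptors on endosomes and so favours recycling over lysosomal breakdown. It was at 218, 264, 190.2 and 265 CPM in wild types, 265, 247, 292 and 276 in heterozygotes and 376, 374, 369.9 and 545 in homozygotes. Every homozygous library was above every other, and replicate 5 stood far above the other 3 (log2 fold change 0.82, SE 0.14, adjusted p = 0.000227; without homozygous replicates 4 and 5, 0.68, adjusted p = 0.000521). Usp25, which counters ER-associated degradation, rose by 0.54 (adjusted p = 0.0296), a call that ended without wild-type replicate 2 or 3 or homozygous replicate 5 (adjusted p 0.0783 to 0.111), without homozygous replicates 4 and 5 (0.37, adjusted p = 0.202) and with the GC offset (0.37, adjusted p = 0.0997). Usp19, of which a form is anchored in the ER membrane, was at 58.7, 56.1, 74.3 and 72.7 CPM in wild types, 41.8, 62.6, 47.6 and 40.7 in heterozygotes and 50.3, 41.8, 44.5 and 30.5 in homozygotes. Homozygous and wild-type libraries did not overlap (log2 fold change -0.64, SE 0.18, adjusted p = 0.0144), though the call was lost on omission of wild-type replicate 3 (-0.56, adjusted p = 0.0572) and without homozygous replicates 4 and 5 together (-0.52, adjusted p = 0.0827). With the GC offset the value of Usp19 was -0.24 (adjusted p = 0.323). Usp30, the mitochondrial protease that opposes parkin, was at 35.9, 56.1, 46.6 and 34.2 CPM in wild types, 27.0, 43.0, 35.9 and 28.9 in heterozygotes and 30.9, 30.5, 18.9 and 14.7 in homozygotes. The homozygous libraries were all below the wild-type ones (log2 fold change -0.78, SE 0.24, adjusted p = 0.0178). The call ended without wild-type replicate 2 or 3 or homozygous replicate 4 or 5 (adjusted p 0.0524 to 0.0731). It was -0.47 (adjusted p = 0.191) without the latter 2 together and -0.52 (adjusted p = 0.0706) with the GC offset. Exons of Alkbh2 and Svop overlap Usp30 by 329 and 161 bases on the other strand.

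Of 14 tested proteases listed under growth, Wnt and TGF-beta signalling, 3 were called, all higher, beside 13.7% of all genes called higher and 11.6% lower. Usp34, which stabilises axin, was among the most abundant members at 568, 575, 499.9 and 480.5 CPM in wild types, 690.3, 612, 671 and 657 in heterozygotes and 739, 708, 831 and 903 in homozygotes. The 3 genotypes did not overlap (log2 fold change 0.58, SE 0.11, adjusted p = 0.000586; without homozygous replicates 4 and 5, 0.45, adjusted p = 0.00785). With the GC offset the value of Usp34 was 0.28 (adjusted p = 0.0281). Exons of Ahsa2 overlap Usp34 by 2137 bases on the other strand. Usp24 rose by 0.39 (adjusted p = 0.0182, then 0.0729 and 0.0514 without homozygous replicate 4 and 5 in turn, and 0.263 without both, at 0.22) and Usp47, which acts in DNA base excision repair, by 0.34 (adjusted p = 0.0421). The call of Usp47 ended in 7 of 8 single omissions (all but homozygous replicate 2; adjusted p 0.0509 to 0.114), and its value was 0.23 (adjusted p = 0.286) without homozygous replicates 4 and 5 and 0.13 (adjusted p = 0.445) with the GC offset. Usp9x, a large X-linked protease, was not called (0.35, adjusted p = 0.0687). The lowest value among proteases that were not called was that of Usp35, at -0.89 (adjusted p = 0.0880) with a wild-type mean of 9.90 CPM.

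Usp12, Usp53 and Usp15 stood for the remaining called roles. Usp12, which needs Wdr48 for activity, was at 22.7, 22.8, 20.4 and 26.7 CPM in wild types, 34.1, 25.0, 35.2 and 33.5 in heterozygotes and 50.3, 38.2, 25.5 and 39.5 in homozygotes. Homozygous replicate 4 lay inside the wild-type range (log2 fold change 0.73, SE 0.21, adjusted p = 0.0151). The call ended without wild-type replicate 3 or homozygous replicate 1 (adjusted p = 0.0512 and 0.0599). Usp53, a tight-junction protein of the family, was at 61.6, 52.3, 54.6 and 49.1 CPM in wild types, 64.3, 55.5, 83.5 and 82.7 in heterozygotes and 91.9, 70.0, 101 and 98.2 in homozygotes, with no overlap between homozygous and wild-type (log2 fold change 0.72, SE 0.17, adjusted p = 0.00366). The GC offset ended the call of Usp53 (0.38, adjusted p = 0.0657). Usp15, a relative of the splicing-associated Usp4 and Usp11, rose by 0.50 (SE 0.13, adjusted p = 0.00914; without homozygous replicates 4 and 5, 0.35, adjusted p = 0.0985), and was at 0.23 (adjusted p = 0.153) with the GC offset. Usp11 itself, the most abundant protease per length, was at 536, 683, 622 and 606 CPM in wild types, 648, 595, 686 and 616 in heterozygotes and 687, 614, 492 and 479 in homozygotes and was not called (-0.10, adjusted p = 0.571). Usp29, an imprinted gene next to Peg3, was at 516, 494, 474 and 467 CPM in wild types, 527, 466, 490.0 and 534 in heterozygotes and 532, 518, 648 and 623 in homozygotes. The homozygous and wild-type libraries of Usp29 did not overlap, yet the difference did not pass (0.25, adjusted p = 0.0919), and exons of the antisense gene Zim3 overlap it by 2582 bases. The 3 tested proteases of the proteasome and of free chains were not called, with Usp14 at 0.40 (adjusted p = 0.0537), Usp5 at -0.20 and Usp13 at -0.52.

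**Figure D4:**
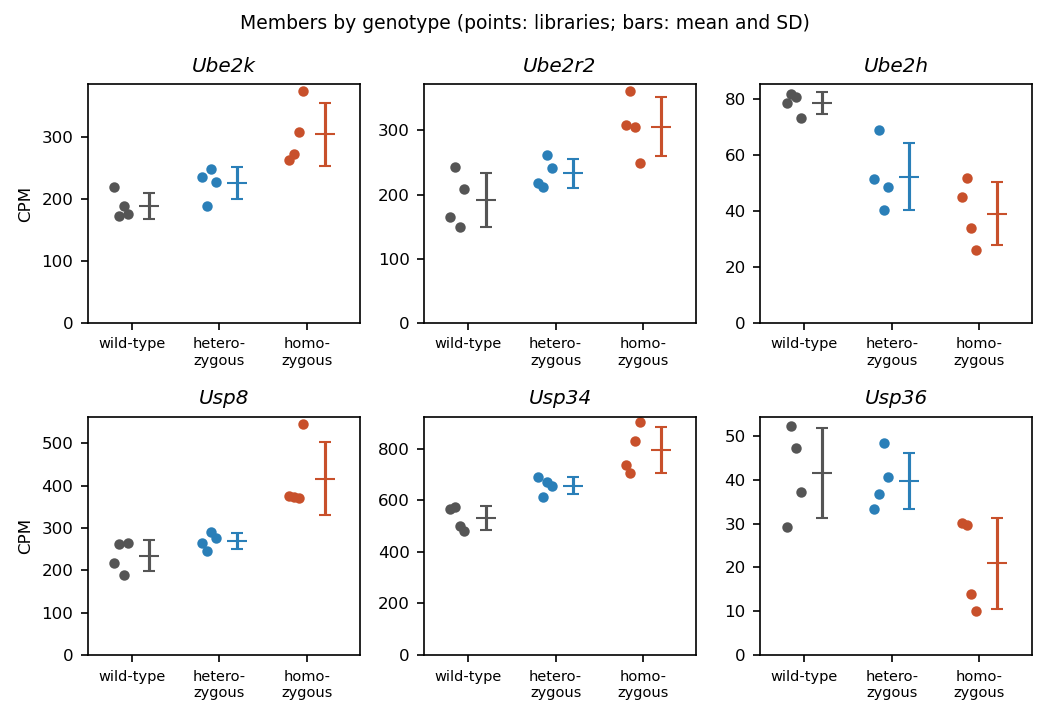
CPM of Ube2k, Ube2r2, Ube2h, Usp8, Usp34 and Usp36 in each library by genotype, with points for libraries and bars for the mean and SD. Homozygous and wild-type libraries are separate for the first 5 genes, and for Usp36 homozygous replicates 4 and 5 (14 and 10.2 CPM) lie below all others.

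Across members, the direction of change went with the base composition of the transcript, as it did across all genes. Spearman's rho between log2 fold change and the GC content of the longest transcript was -0.50 over 26 conjugating enzymes, -0.64 over 45 proteases and -0.49 over 10626 genes. Genes are not independent replicates, and all points share the same libraries. Called-higher members had a median GC content of 45.1% and called-lower ones 52.7%, and all called genes 44.8% and 54.8%. Among proteases, 5 of 14 with GC under 45% were higher and none lower, and of 16 at 50% or more 1 was higher (Usp27x) and 4 were lower. The matching shares of all genes were 28.2% higher and 2.18% lower under 45%, and 4.75% higher and 20.5% lower at 50% or more. With the GC offset, 13 of the 26 calls held, and 21.3% of all genes were called (12.2% higher, 9.03% lower). The conjugating enzymes then counted 5 higher and 4 lower, and the proteases 6 higher and 1 lower (Usp22). Of those conjugating enzymes, 3 higher and 3 lower were also called without the offset, and the rest were called only with it. Ube2r2, Ube2k, Ube2h, Ube2e2, Usp8, Usp34, Usp27x and Usp51 were the 8 members called in every single omission, without homozygous replicates 4 and 5 and with the GC offset.

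**Figure D5:**
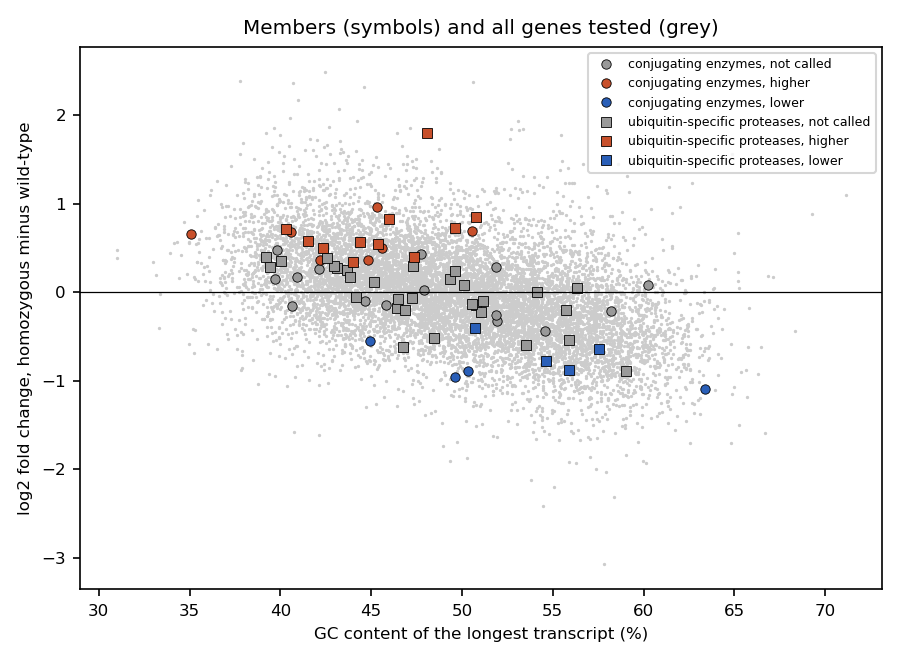
Log2 fold change, homozygous minus wild-type, against GC content of the longest transcript in percent, with members as symbols and all genes tested in grey. Members follow the downward slope of the grey points, with called-higher members at a median GC of 45.1% and called-lower members at 52.7%.

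With a single mutant copy, no member passed. In heterozygous against wild-type mice 0 of 26 conjugating enzymes and 0 of 45 proteases were called by edgeR. Of all genes 0.596% were called (0.512% higher and 0.0838% lower). At an unadjusted p under 0.05 there were 1 of 26 and 7 of 45, and 1520 of all 10737 genes tested. DESeq2 called 0 and 0 members and 222 of all genes, and limma-voom 1 and 1 members and 394 of all genes. Those called by limma-voom were Ube2h (log2 fold change -0.61, adjusted p = 0.0296) and Usp34 (0.34, adjusted p = 0.0430). The edgeR values were -0.57 (SE 0.18, adjusted p = 0.157) for Ube2h and 0.31 (SE 0.11, adjusted p = 0.189) for Usp34. Usp51 was at 0.78 (adjusted p = 0.243), and the other 5 proteases under the unadjusted threshold were Usp16, Usp53 and Usp42 upward and Usp19 and Usp2 downward.

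In homozygous against heterozygous mice, 2 proteases and 0 conjugating enzymes were called, where 2.2% of all genes were (1.74% higher and 0.456% lower). This comparison shares its libraries with the others. Usp8 was higher by 0.62 on the log2 scale (SE 0.14, adjusted p = 0.0257) and Usp51 by 1.02 (SE 0.26, adjusted p = 0.0375). The call of Usp8 ended without heterozygous replicate 1, 2 or 4 or homozygous replicate 5 (adjusted p = 0.0704, 0.126, 0.0663 and 0.102). That of Usp51 ended without any 1 of the heterozygous libraries or homozygous replicate 4 or 5 (adjusted p = 0.0898, 0.191, 0.0566, 0.0663, 0.118 and 0.154). At an unadjusted p under 0.05 there were 9 of 26 conjugating enzymes and 9 of 45 proteases, and 2179 of all 10737 genes tested. DESeq2 called 2 and 3 members and 429 of all genes, and limma-voom 0 and 1 members and 78 of all genes.

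The rest of the pathway was read from lists of its other genes, as counts of called genes among those tested, homozygous against wild-type, beside 13.7% of all genes called higher and 11.6% lower. No list was tested against that background. Of 9 ubiquitin and ubiquitin-like genes 0 were higher and 2 lower, among them the polyubiquitin gene Ubb (21.3 ± 8.76 to 6.53 ± 2.46 CPM, adjusted p = 0.00386). Of 8 activating enzymes 3 were higher, among them Uba6 and the NEDD8-activating subunit Uba3, while Uba1, the main ubiquitin E1, was not called (639 ± 93.6 and 607 ± 93.4 CPM, adjusted p = 0.722). Of 7 conjugating enzymes without a Ube2 symbol 2 were higher, among them Atg3 of autophagy (26.6 ± 4.71 to 64.6 ± 28.7 CPM, adjusted p = 0.00159). Cullins and their partners had 6 of 16 higher and 0 lower, led by Rnf7, Cul4b and Cul3. RING and U-box ligases had 6 of 39 in each direction, near the background shares, with Xiap, an inhibitor of caspases, higher (156 ± 27.5 to 305 ± 75.7 CPM, adjusted p = 0.000172) and Ubr4, an N-degron ligase, lower (453 ± 11.2 to 263 ± 40.8, adjusted p = 0.000136). Syvn1, the ligase of the ER membrane that works with Ube2j1, was lower (59.1 ± 8.23 to 39.0 ± 12.9 CPM, adjusted p = 0.0399). HECT ligases had 2 of 21 in each direction, with Wwp2 (adjusted p = 0.000188) and Ube3b lower and Hectd2 and Itch higher.

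Among removal enzymes outside the Usp symbols, 5 of 27 were higher and 5 lower. The list includes subunits of a translation initiation factor, with Eif3f among the 5 higher and Eif3h among the 5 lower. Brcc3, which cuts signalling chains, rose from 47.8 ± 5.74 to 99.0 ± 10.3 CPM (adjusted p = 6.71e-05), and Otub1, which binds and blocks conjugating enzymes, fell from 104 ± 15.2 to 51.2 ± 16.1 (adjusted p = 0.000771). The neuronal hydrolase Uchl1 fell from 206 ± 21.4 to 113 ± 37.8 CPM (adjusted p = 0.00104). Of 8 partners of the proteases Wdr48, which activates Usp12, was higher (91.0 ± 10.9 to 122 ± 17.8 CPM, adjusted p = 0.0428), as was Gmps, a partner of Usp7, and Dmwd, a relative of the Wdr20 partner of Usp12, was lower. SUMO and NEDD8 proteases had 2 of 7 higher, Senp6 and Senp7, and 0 lower. By list the median log2 fold change ran from -0.27 for the modifier genes to 0.35 for the SUMO and NEDD8 proteases, with -0.03 over all genes tested.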

How the data were processed

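The members and gene lists were chosen with earlier results of these data known. Total RNA (50 ng) was amplified by NuGEN's Ovation V2 chemistry and read on a SOLiD 5500xl as pairs of 75 and 35 bp, per the labels' protocols; mouse build mm10 is named in the submitters' processing notes. Aligner, counter, annotation and strand were not given in the sources used here. Raw counts per gene symbol were deposited by the authors and were checked here to be whole numbers. Library totals were 979394 to 2330872.

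Symbols were matched to GENCODE M21: 83 of the members directly and 3 by an older symbol. The tests were run in edgeR 4.0.16 under R 4.3.3 (TMM factors 0.908 to 1.08, filterByExpr, quasi-likelihood F test, 12 libraries, genotype as the only term), with Benjamini-Hochberg adjustment over 10737 genes. The test was checked on simulated counts. The SE of a log2 fold change is its size over the root of F. Alternatives were DESeq2 1.42.0, limma-voom 3.58.1 with quality weights, DESeq2 size factors, no filter, 2 genotypes, a replicate block, a GC offset (lowess of log2 deviations on transcript GC content, span 0.3), each library left out, and homozygous replicates 4 and 5 left out together. Every called member homozygous against wild-type could be named. The 6 most changed each way per family, and members called in other pairs or highest in wild-type, are given by library. In pathway lists up to 3 called genes were named by smallest p. Syvn1, Uchl1, Itch, Uba1, Atxn7l3, Eny2, Eif3f, Eif3h and members that were not called were chosen after their values were seen. Some listed genes are not reported here.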

Additional observations from a re-analysis of the deposited data

Results flagged for a closer look

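In 84 groups of 4 libraries (28 named members in 3 genotypes), 5 held a library far from the other 3 by Dixon's test, where chance gives about 1 group in 20. Usp8 was highest in homozygous replicate 5, at 545 CPM where the other 3 were at 369.9 to 376, and the gap took up 0.968 of the group's range. Ube2j1 was lowest in homozygous replicate 1, at 235 CPM against 321 to 325 (0.951). Ube2v2 was lowest in wild-type replicate 2, at 38.1 CPM against 59.4 to 61.2 (0.922), and Ube2d2 was highest in the same library, at 184 CPM against 114 to 120.2 (0.915). Usp12 was lowest in heterozygous replicate 2, at 25.0 CPM against 33.5 to 35.2 (0.833).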

How the results depend on the processing

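Of the 26 members called in homozygous against wild-type mice, 13 stayed called in each of 8 single omissions, 11 without homozygous replicates 4 and 5, 13 with the GC offset and 12 with the replicate block. Single omissions gave 4 to 7 conjugating enzymes higher and 3 to 4 lower, and 7 to 15 proteases higher and 1 to 6 lower. Without homozygous replicates 4 and 5 the counts were 2 and 2, and 6 and 1. The GC offset gave 6 proteases higher and 1 lower, and limma-voom 4 conjugating enzymes higher. In heterozygous against wild-type mice, single omissions gave 0 to 1 conjugating enzymes and 0 proteases. A fit of the 2 genotypes gave 1 conjugating enzyme (Ube2h), and limma-voom 1 and 1. In homozygous against heterozygous mice, single omissions gave 0 to 3 conjugating enzymes and 0 to 4 proteases. Without a filter on low counts, and with DESeq2, 2 conjugating enzymes were called. The proteases numbered 0 in the fit of 2 genotypes, 0 without homozygous replicates 4 and 5, and 1 with limma-voom. The causes of these moves were not tested, beyond the smaller number of libraries.

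Deviations of libraries with the same number correlated at -0.26 to 0.33 over 8 pairs of libraries, highest for heterozygous and homozygous replicate 2. They were not above 0.1 in every pair, so the numbers were not taken to pair samples, and homozygous replicate 5, whose number is in no label, was not in this check. With the replicate block, in which wild-type and homozygous replicate 5 each stand alone and add nothing to a genotype difference, 2 conjugating enzymes were higher, and 6 proteases were higher and 1 lower, and no protease (0) was called in homozygous against heterozygous mice. Among single members 352 values kept their side of the threshold, 124 lost a call, 1 gained one and 2 changed sign: Usp11, which was never called, at 0.043 (adjusted p = 0.883) with the block and 0.093 (adjusted p = 0.666) without homozygous replicates 4 and 5. At these depths Ube2m rests on 1.13 to 13.1 CPM, and 15 members were too low to test.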
